A study of Mus musculus with 18 samples.

Results

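Airway cells sorted as EpCAM-positive, CD104-positive and CD24lo were compared with alveolar cells sorted as EpCAM-positive and CD104lo from the same lungs. The members are the libraries that the labels name airway CD24L and alveolar EpCAM pos, 3 of each and 6 of the 18 libraries in the series. The other 12 libraries came from tracheal basal cells, tracheal non-basal cells, airway CD24hi cells and EpCAM-negative lung cells, and were used to estimate the spread between replicates and, where named, for a level. The labels give the CD24lo gate as luminal cells enriched in club cells, from normal untreated lung of C57BL/6 mice numbered 4, 5 and 6, and give the alveolar gate to the same 3 animals. Replicates 1, 2 and 3 of both populations are therefore mice 4, 5 and 6. The methods describe young adult male mice, mincing and collagenase digestion of whole lung and, for the alveolar sort, exclusion of CD45-positive and CD31-positive cells. Neither gate used a secretory or surfactant gene, so each population is an enrichment by surface protein and can hold more than 1 cell type.

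Club cells are the non-ciliated secretory cells of the conducting airways. They release secretoglobins, carry a dense smooth endoplasmic reticulum with cytochrome P450 enzymes that oxidise inhaled compounds, and can renew themselves and give rise to ciliated cells. Alveolar type 2 cells line the gas-exchange region. They make, store in lamellar bodies and secrete surfactant, a film of phospholipid and surfactant proteins that lowers surface tension, and they can renew themselves and give rise to the flat alveolar type 1 cells.

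The 3 CD24lo libraries held between 9811503 and 11693754 counted reads and the 3 alveolar libraries between 11241139 and 12626769. Levels are given as RPKM, reads per kilobase of gene scaled to library size by edgeR's TMM method, which sets libraries of different composition on a common scale. Replicates differed by more than counting noise, and 2 libraries stood apart from their groups. CD24lo replicate 1 held more endothelial and ciliated transcripts than the other 2, with summed RPKM of 544 against 198 and 217 for 10 endothelial markers and of 1270 against 630 and 657 for 20 ciliated markers. Alveolar replicate 2 differed from the other 2 in *Lars2*, at 1230.2 RPKM against 52.3 and 54.5 RPKM, and in *mt-Rnr2*, a mitochondrial ribosomal RNA, at 889 RPKM against 302 and 295 RPKM.

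The defining markers followed the labels. *Scgb1a1*, the secretoglobin that defines club cells, was at 471750, 658300 and 665630 RPKM in CD24lo replicates 1, 2 and 3 and at 3686, 4674 and 3663 RPKM in the alveolar replicates. It took 21.5%, 26.8% and 27.6% of all counted reads in the CD24lo libraries and between 0.151% and 0.196% in the alveolar libraries. *Sftpc*, surfactant protein C and the defining gene of type 2 cells, was at 5709, 2697 and 4243 RPKM in CD24lo and at 150120, 149920 and 168620 RPKM in alveolar cells. The groups were far apart for both genes, and both genes were nonetheless counted in all 6 libraries.

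**Figure D1:**
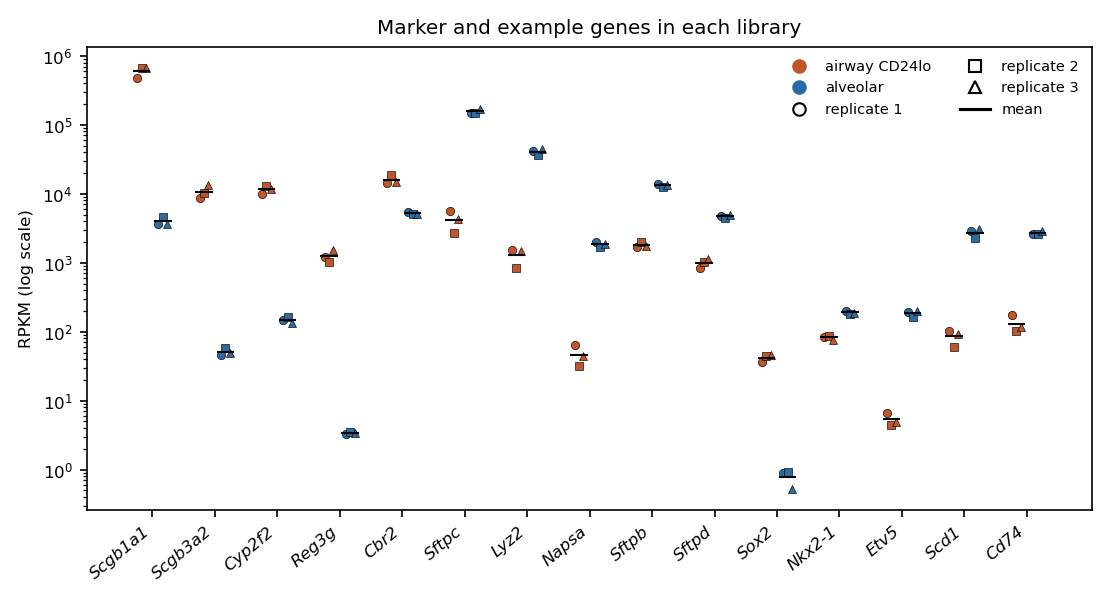
RPKM on a log axis for 15 genes in each of the 3 airway CD24lo and 3 alveolar libraries, where each point is a library and the black bar is the mean of the group. *Scgb1a1*, *Scgb3a2*, *Cyp2f2*, *Reg3g*, *Cbr2* and *Sox2* lay higher in every CD24lo library, and *Sftpc*, *Lyz2*, *Napsa*, *Sftpb*, *Sftpd*, *Nkx2-1*, *Etv5*, *Scd1* and *Cd74* lay higher in every alveolar library.

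The populations differed across much of the transcriptome. Of 17989 genes tested with edgeR's quasi-likelihood test, 8707 (48.4%) differed at a Benjamini-Hochberg adjusted p-value under 0.05. Of these, 4347 (24.2% of the genes tested) were higher in CD24lo cells and 4360 (24.2%) were higher in alveolar cells. A stricter test for a change beyond 2-fold, edgeR's glmTreat, called 1832 genes (10.2%) higher in CD24lo and 972 (5.4%) higher in alveolar cells, and over all tested genes the median log2 change was 0.03. In bulk RNA of this kind, fewer cells of a type and less RNA per cell cannot be told apart. Counts of list members below are read against these shares.

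**Figure D2:**
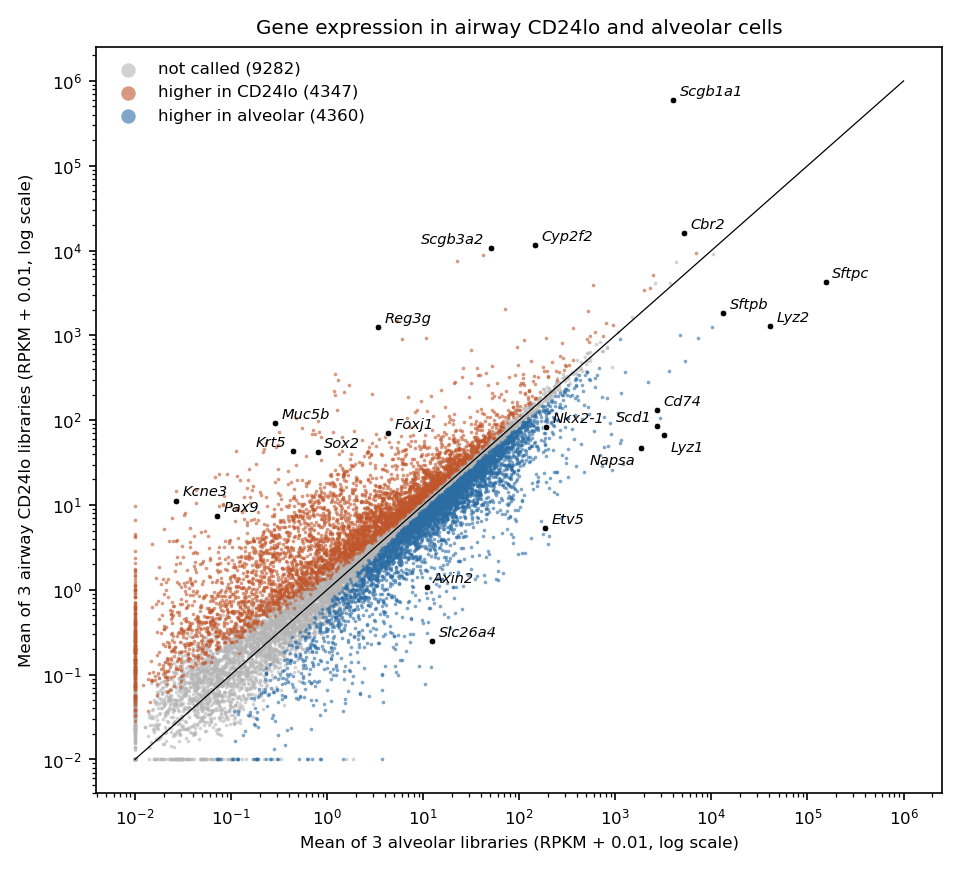
Mean RPKM plus 0.01 of the 3 alveolar libraries (horizontal) and of the 3 CD24lo libraries (vertical), both on log axes, for 17989 genes, coloured by edgeR's call, with the diagonal marking equal levels. *Scgb1a1* stands alone at the top, *Sftpc* is farthest to the right, and genes with few alveolar reads such as *Kcne3* and *Pax9* lie at the left.

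Club genes led the messages of the CD24lo gate. The 5 genes with the highest mean RPKM there were *Scgb1a1*, *Cbr2*, *Cyp2f2*, *Scgb3a2* and the mitochondrial *CYTB*. *Cyp2f2*, the P450 that activates naphthalene in mouse club cells, stood at 9814, 13090 and 11876 RPKM in CD24lo and at 146, 162 and 132 RPKM in alveolar cells. *Scgb3a2*, another secretoglobin, was at 8601, 10184 and 13317 RPKM against 45.4, 58.4 and 48.4 RPKM. Neither gene's groups overlapped. The log2 fold changes of CD24lo over alveolar were 7.22 ± 0.31 (SE) for *Scgb1a1*, 6.30 ± 0.23 for *Cyp2f2* and 7.72 ± 0.26 for *Scgb3a2*, with adjusted p-values in edgeR's quasi-likelihood test of 3.97e-12, 8.90e-13 and 2.66e-13.

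All 20 genes of the club list passed the test in the CD24lo direction, against 24.2% of all genes, and their median log2 change was 7.23 where that of all genes was 0.03. They did not form a uniform group. In 13 of them the alveolar level was below 2% of the CD24lo level. *Reg3g*, an antimicrobial lectin, had an alveolar level of 0.273% of the CD24lo mean, *Scgb3a1* of 0.299% and *Muc5b*, the main gel-forming mucin of small airways, of 0.300%. By contrast *Cbr2*, a carbonyl reductase, had 14416, 18566 and 14935 RPKM in CD24lo and 5488, 5106 and 5127 RPKM in alveolar cells, 32.8% of the CD24lo level. *Por*, the electron donor of the P450 enzymes, stood at 26.4%, *Selenbp1* at 30.2% and *Hp*, haptoglobin, at 14.9%. For *Cbr2* the log2 fold change was 1.61 ± 0.17 (SE; adjusted p = 4.41e-07, edgeR's quasi-likelihood test). *Nupr1*, a stress-induced nuclear protein, was at 283, 339 and 476 RPKM against 258, 215 and 310 RPKM, with groups that overlapped, and its call (log2 fold change 0.49 ± 0.16) was lost without CD24lo replicate 3 (log2 fold change 0.26), without alveolar replicate 2 (0.38) and in the 6 libraries alone (0.54).

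All 20 genes of the alveolar type 2 list passed the test in the alveolar direction, against 24.2% of all genes, and their median log2 change was -4.72. None of them was absent from the CD24lo libraries, and the level they kept there ran from 2.07% to 25.6%. They are given below in bands cut after the values were seen, and single libraries overlap across the cuts. *Lyz1*, *Fabp5*, *Napsa*, *Lamp3*, *Il33*, *Sftpc*, *Hc*, *Etv5* and *Lyz2* stood at 2.07% to 3.13% of their alveolar mean. *Slc34a2*, *Lpcat1*, *Lgi3* and *S100g* stood at 3.61% to 6.32%. *Cxcl15*, *Chil1*, *Sftpa1*, *Sftpb*, *Abca3*, *Sftpd* and *Ctsh* stood at 9.34% to 25.6%. *Sftpb*, a surfactant protein, had 1707, 2032 and 1751 RPKM in CD24lo and 14085, 12448 and 13246 RPKM in alveolar cells (log2 fold change -2.86 ± 0.22, SE), while *Napsa*, the aspartic protease that processes its precursor, stood at 63.4, 31.5 and 44.1 RPKM and 1990, 1719 and 1897 RPKM (-5.33 ± 0.29).

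These levels also varied between CD24lo libraries, by ratios given without a test. *Sftpc* was highest in replicate 1 and lowest in replicate 2, a ratio of 2.12 between them. *Napsa* (2.01), *Lamp3* (1.78), *Lyz2* (1.77), *Fabp5* (1.82) and *Il33* (2.47) were also lowest in replicate 2. *Sftpb* was highest in replicate 2, and its highest and lowest levels differed by a ratio of 1.19. *Sftpd* (1.32), *Sftpa1* (1.26), *Abca3* (1.20) and *Ctsh* (1.21) were lowest in replicate 1. With 3 libraries no test of this split was made. In tracheal non-basal cells, from an organ without alveoli, the mean level was 3.38 RPKM for *Sftpc*, 0.395 for *Napsa* and 0.0864 for *Lamp3*, but 579 for *Sftpd*, 330 for *Sftpa1*, 155 for *Ctsh* and 7336 for *Lyz2*. *Sftpb* was at 14.5 RPKM there, well below its CD24lo level. How much of each level in the CD24lo gate came from alveolar cells in the sort was not tested.

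**Figure D3:**
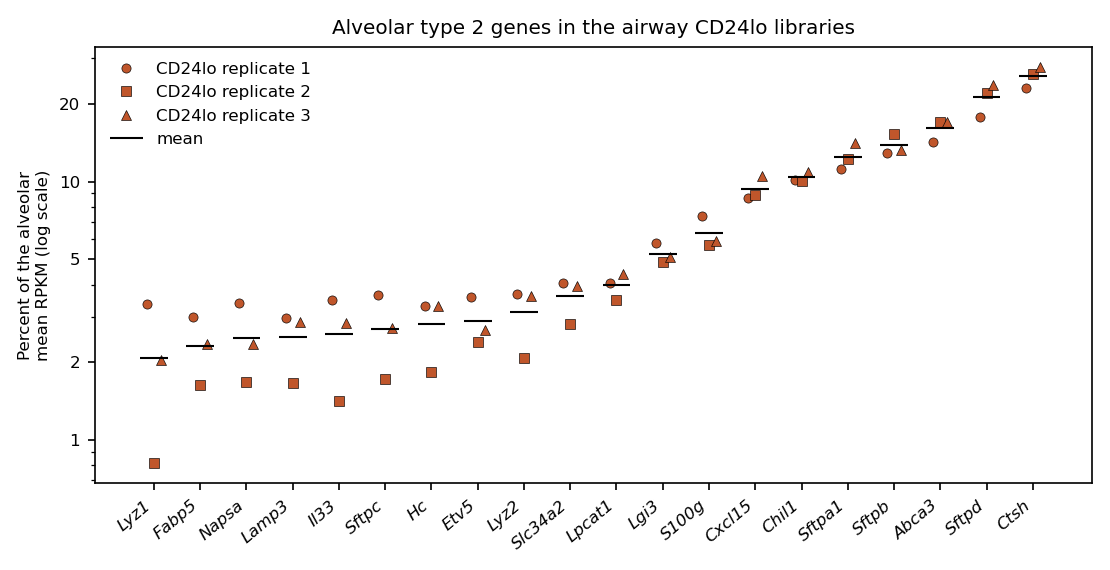
Level of each of 20 alveolar type 2 genes in the 3 CD24lo libraries as a percent of the mean of the 3 alveolar libraries, on a log axis, with each point a library and the bar the mean. Replicate 2 lies lowest for *Sftpc*, *Napsa* and *Lamp3*, whose means are near 2% to 3%, and not for *Sftpb*, *Sftpd*, *Abca3* or *Ctsh*, whose means lie between 13.8% and 25.6%.

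FOX factors and NKX2-1 are known regulators of both secretoglobin and surfactant promoters, and the 250 bases before the RefSeq start (GRCm38.p6) of a gene from each side are shown for that reason. Capitals mark exact matches on either strand to the FOX letters TGTTTAC or TGTTTGC and to the NKX2-1 core letters CTCAAG. FOX letters occurred in 7.29% and NKX2-1 letters in 13.3% of the 32851 windows of this length in the table, and in 8.22% and 15.2% of the 27025 genes with a window. Both windows below hold both, and a match is a description of the letters only. *Scgb3a1* was the only club list gene with a window, and *Sftpb* the only type 2 list gene with a window, that held both. The pair is therefore not typical of either list. The *Scgb3a1* window is chr11:49663345-49663594 (plus strand) and the *Sftpb* window is chr6:72304360-72304609 (plus strand).
Scgb3a1: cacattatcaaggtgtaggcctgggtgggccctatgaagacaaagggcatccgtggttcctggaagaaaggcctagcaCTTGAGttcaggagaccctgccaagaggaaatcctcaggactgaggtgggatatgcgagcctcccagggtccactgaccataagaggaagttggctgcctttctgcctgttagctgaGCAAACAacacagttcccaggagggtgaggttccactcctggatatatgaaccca
Sftpb: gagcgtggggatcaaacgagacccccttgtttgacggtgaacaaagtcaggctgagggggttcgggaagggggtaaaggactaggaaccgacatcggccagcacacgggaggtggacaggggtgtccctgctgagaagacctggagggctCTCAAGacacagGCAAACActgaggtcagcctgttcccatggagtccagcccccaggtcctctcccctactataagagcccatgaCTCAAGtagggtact
Among the genes with a window in the table, FOX letters were found in 5 of 14 alveolar type 2 genes and 3 of 15 club genes, and NKX2-1 letters in 2 of 14 and 5 of 15.

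Markers of other cell types were read in the same libraries. All 20 ciliated genes were higher in CD24lo than in alveolar cells (median log2 change 3.98), with summed RPKM of 630 to 1270 in CD24lo and 295 to 297 in alveolar libraries. The median of their CD24lo levels was 10.9% of the level in the CD24hi gate, and *Foxj1*, the master regulator of motile cilia, stood at 108, 51.5 and 52.6 RPKM in CD24lo, 4.85, 4.497 and 3.602 RPKM in alveolar and a mean of 626 RPKM in CD24hi cells. *Gmnc*, which starts multiciliated cell fate, went the other way. It stood at 5.297, 6.44 and 7.78 RPKM in CD24lo and a mean of 0.616 RPKM in CD24hi cells, a log2 fold change of 3.40 ± 0.22 (SE; adjusted p = 1.71e-09, edgeR's quasi-likelihood test). *Mcidas*, which acts next, had 3.75, 3.21 and 4.69 RPKM against a mean of 1.79 RPKM in CD24hi (1.12 ± 0.30; adjusted p = 0.00553, same test).

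Of 10 basal cell genes, 8 were higher in CD24lo and 1, *Igfbp3*, was higher in alveolar cells. *Krt5* stood at 31.9, 59.99 and 36.5 RPKM in CD24lo and 0.121, 0.8403 and 0.323 RPKM in alveolar cells, and *Trp63*, the transcription factor of basal cells, at 6.78, 11.9 and 8.57 RPKM and 0.131, 0.0912 and 0.0833 RPKM. These CD24lo levels were 2.78% and 9.30% of the tracheal basal mean for *Krt5* and *Trp63*. CD24lo replicate 2 was the highest for both. Of 10 neuroendocrine genes 5 were higher in CD24lo (3 without alveolar replicate 3 or with the mouse as a block) and 5 were not called, at summed RPKM of 13.4 to 18.9 against 4.32 to 7.37. No leukocyte gene was called in edgeR's quasi-likelihood test, with 0 of 12 at an unadjusted p under 0.05 and 0 of 12 by DESeq2 or limma's voom, and with summed RPKM of 27.9 to 38.3 against 26.0 to 38.3.

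Of 10 endothelial genes, 6 were higher in CD24lo. Without CD24lo replicate 1 the count was 1, and without alveolar replicate 1 or 3 it was 1 or 2. *Pecam1*, whose protein is the CD31 used to exclude cells, was at 72.7, 25.2 and 23.7 RPKM against 12.1, 23.2 and 15.2 RPKM, with replicate 1 apart from the other 2. *Kdr*, a VEGF receptor of endothelium, behaved differently, at 42.5, 43.7 and 42.2 RPKM in CD24lo and 4.36, 8.33 and 5.38 RPKM in alveolar cells (log2 fold change 2.83 ± 0.26, SE), so that it was even across the CD24lo libraries and did not follow *Pecam1*. Of 10 stromal genes, 3 were higher in CD24lo and 5 in alveolar cells, and the second count was 1 without CD24lo replicate 2 or 3, without alveolar replicate 1 or 2 and by DESeq2. *Dcn*, a matrix proteoglycan, had 101, 120 and 91.96 RPKM in CD24lo against 21.1, 20.2 and 15.98 RPKM.

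Alveolar type 1 genes were split. Of 16, 4 were higher in CD24lo, 7 were higher in alveolar cells and 5 were not called, and their median log2 change was -0.28. *Ager*, a receptor of type 1 cells, stood at 1136, 1135 and 1148 RPKM in alveolar and 237, 223 and 171 RPKM in CD24lo libraries. *Pdpn*, podoplanin or T1α, was at 36.8, 44.7 and 37.7 RPKM in CD24lo and 6.52, 8.43 and 4.79 RPKM in alveolar libraries, and *Hopx* at 109, 84.4 and 87.3 RPKM against 34.7, 48.7 and 33.7 RPKM. Both are also expressed outside type 1 cells.

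**Figure D4:**
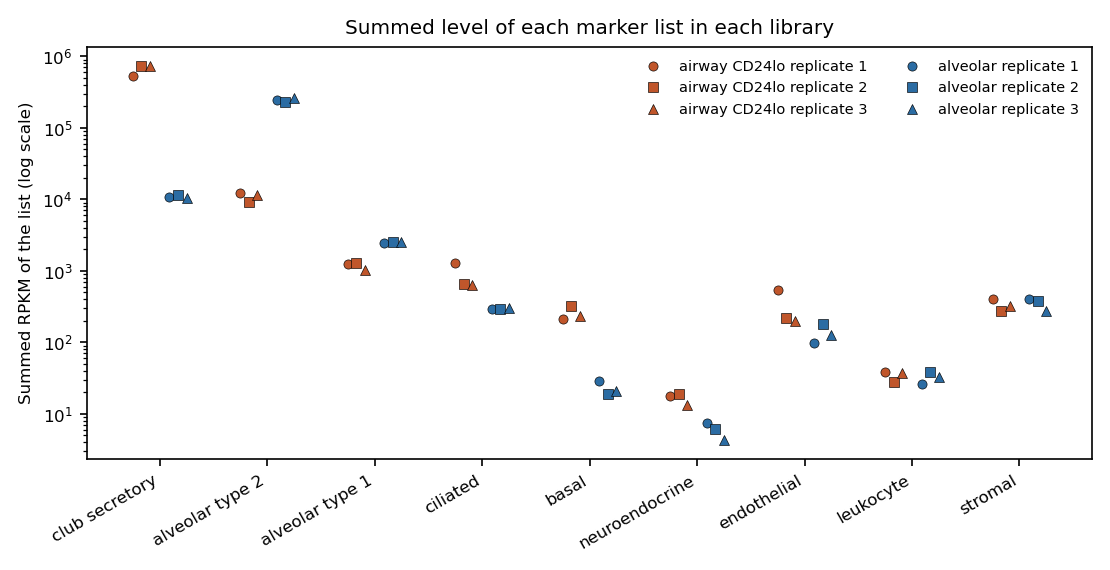
Summed RPKM on a log axis of 9 marker lists in each CD24lo and alveolar library, where each point is a library. Club, ciliated, basal, neuroendocrine and endothelial sums are higher in all 3 CD24lo libraries, type 2 and type 1 sums are higher in all 3 alveolar libraries, and leukocyte and stromal sums overlap.

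The gate proteins were also read as transcripts. *Itgb4*, which encodes CD104, had 19.04, 18.8 and 12.4 RPKM in CD24lo and 0.3999, 0.7905 and 0.573 RPKM in alveolar libraries. *Cd24a* stood at 338, 339 and 343 RPKM, 39.3, 39.98 and 38.6 RPKM and a mean of 1103 RPKM in CD24hi cells, so that its order followed the gates. *Epcam* was slightly higher in alveolar cells, at 83.7, 89.8 and 85.8 RPKM in CD24lo and 109, 102 and 108 RPKM in alveolar libraries, with groups that did not overlap (log2 fold change -0.30 ± 0.08, SE), and this call was lost with the mouse as a block in the 6 libraries (-0.25).

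The 12 largest rises in CD24lo, among called genes averaging 10 CPM or more whose groups did not overlap, were *Ifi202b*, *Atp6v1b1*, *Fmo6*, *Reg3g*, *Cyp4a12b*, *Scgb3a1*, *Muc5b*, *Otx1*, *Capn13*, *Tff2*, *Gp2* and *Bpifb1*. *Atp6v1b1*, a subunit of the proton pump, was at 36.5, 41.9 and 52.2 RPKM in CD24lo and 0, 0.0955 and 0.2095 RPKM in alveolar libraries. *Tff2*, a trefoil peptide of mucus, had 346, 317 and 377 RPKM against 0.772, 1.93 and 0.884 RPKM. Several rested on almost no alveolar reads. *Fmo6* had 830 reads in the CD24lo libraries and 2 in the alveolar ones, a ratio of 448 (95% exact interval 124 to 3708, counting error only), *Otx1* had 632 and 2 (341, 94.1 to 2825), and *Ifi202b*, an interferon-induced DNA sensor, had 765 and 1 (826, 148 to 32685). *Ifi202b* varied between the CD24lo libraries, at 8.099, 20.4 and 14.9 RPKM. Tracheal basal means, read without a test, were higher for *Fmo6*, *Otx1* and *Ifi202b*, at 95.7, 36.1 and 90.1 RPKM. The CD24lo means were 15.1, 7.52 and 14.5 RPKM. *Atp6v1b1* and *Tff2* were lower in tracheal basal than in CD24lo cells, at 16.2 and 7.37 RPKM. Tracheal non-basal means, also read without a test, were below CD24lo for *Ifi202b* and *Tff2*, at 6.94 and 95.9 RPKM. They were above CD24lo for the rest of the 12. *Reg3g* was at 15925 RPKM there against 1253 RPKM in CD24lo, and *Atp6v1b1* at 132 RPKM against 43.5 RPKM.

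The 12 largest falls were *Ros1*, *Tmem132d*, *Itih1*, *Acoxl*, *Hkdc1*, *Slc26a4*, *Fabp12*, *Lyz1*, *Mlc1*, *Sgpp2*, *Cst8* and *Tmem121b*. *Ros1*, a receptor tyrosine kinase, stood at 3.33, 4.38 and 3.72 RPKM in alveolar and 0.0249, 0.0398 and 0.0467 RPKM in CD24lo libraries. *Acoxl*, an acyl-CoA oxidase-like gene, was at 211, 188 and 198 RPKM against 4.57, 1.72 and 3.98 RPKM, and *Mlc1*, a membrane protein, at 206, 196 and 210 RPKM against 5.34, 3.84 and 3.81 RPKM. *Sgpp2*, a sphingosine-1-phosphate phosphatase, had 61.95, 55.4 and 63.5 RPKM against 1.57, 0.8596 and 1.47 RPKM. Their log2 fold changes ran from -6.67 for *Ros1* to -5.42 for *Tmem121b*. The most abundant genes of the alveolar gate by RPKM were *Sftpc*, *Lyz2*, *Sftpb*, the mitochondrial *COX1* and *Sftpa1*. *Lyz1* and *Lyz2*, adjacent lysozyme genes, shared 24 of the 1164 windows of 100 bases of *Lyz1*, so most reads could be told apart.

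Enzymes that metabolise foreign compounds were mostly higher in CD24lo cells. Of 48 genes, 37 were higher in CD24lo, 3 in alveolar cells and 8 were not called, and their median log2 change was 2.10. Among oxidising enzymes, the P450 *Cyp2a5* stood at 187, 184 and 224 RPKM against 1.34, 1.34 and 0.942 RPKM. *Cyp4f15*, another P450, was at 35.4, 45.9 and 45.3 RPKM against 0.124, 0.345 and 0.142 RPKM. The alveolar libraries lay far below the CD24lo libraries for both. *Aldh1a1*, a retinaldehyde dehydrogenase, was at 1635, 2153 and 2374 RPKM against 81.9, 69.6 and 64.3 RPKM, and *Adh7*, a class of alcohol dehydrogenase active on retinol, at 60.8, 69.7 and 88.1 RPKM against 0.7205, 0.974 and 0.728 RPKM.

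Conjugating enzymes followed. *Gsto1*, a glutathione transferase, stood at 818, 924 and 1074 RPKM in CD24lo and 9.02, 12.1 and 11.3 RPKM in alveolar cells, with a log2 fold change of 6.44 ± 0.17 (SE; adjusted p = 8.78e-14, edgeR's quasi-likelihood test). *Gsta3* was at 343, 438 and 473 RPKM against 38.9, 31.3 and 37.6 RPKM. The transferase *Gstt1* was an exception, at 86.3, 95.9 and 102 RPKM against 216, 193 and 228 RPKM (-1.17 ± 0.13). *Cyp2a5* and *Cyp4a12b* shared 14.4% and 36.2% of their 100-base windows with a near-identical paralog, so their counts can include reads of the paralog.

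Of 22 genes of glutathione synthesis and the NRF2 antioxidant response, 11 were higher in CD24lo, 7 in alveolar cells and 4 were not called, with a median of 0.33. *Gclm*, the modifier subunit of the enzyme that limits glutathione synthesis, was at 41.7, 39.3 and 40.2 RPKM against 10.2, 10.3 and 9.06 RPKM, and *Gpx2*, a glutathione peroxidase, at 182, 204 and 194 RPKM against 13.6, 12.2 and 10.6 RPKM. *Prdx6*, a peroxiredoxin that also acts on surfactant phospholipid, stood at 778, 1110 and 930 RPKM against 182, 193 and 200 RPKM. None of these 3 genes had overlapping groups, as for 18 of the 22 (55.7% of all genes did not overlap). The 7 higher in alveolar cells were *Cat*, *G6pdx*, *Txn1*, *Hmox1*, *Gpx1*, *Gpx3* and *Sod3*. Their log2 fold changes ran from -0.35 for *Cat* to -1.37 for *Sod3*.

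Fatty acid and sterol synthesis was the reverse. Of 24 genes, 23 were higher in alveolar cells and 1 in CD24lo, and their median log2 change was -1.65, and 16 of the 23 passed the test for a change beyond 2-fold (5.4% of all genes). *Scd1*, the desaturase that makes monounsaturated fatty acids, was at 2903, 2264 and 3072 RPKM in alveolar and 103, 60.8 and 93.97 RPKM in CD24lo libraries. *Fasn*, fatty acid synthase, had 233, 217 and 246 RPKM against 13.7, 14.03 and 14.8 RPKM, a log2 fold change of -4.03 ± 0.12 (SE; adjusted p = 1.37e-13, edgeR's quasi-likelihood test). *Elovl1*, an elongase, stood at 1255, 1115 and 1033 RPKM against 74.2, 51.3 and 51.2 RPKM. For *Fasn* and *Elovl1* the CD24lo level was close to that of CD24hi cells, at means of 12.5 and 54.3 RPKM. The exception was *Elovl6*, the elongase of palmitate, at 1.24, 1.78 and 1.95 RPKM in CD24lo and 0.311, 0.108 and 0.1696 RPKM in alveolar libraries.

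In the sterol arm, *Fdps*, which makes farnesyl diphosphate, was at 83.3, 56.9 and 82.7 RPKM against 11.9, 9.07 and 9.77 RPKM and *Hmgcs1*, HMG-CoA synthase, at 102, 77.4 and 96.4 RPKM against 37.4, 32.7 and 39.1 RPKM. Alveolar replicate 2 was the lowest of its group for both. The log2 fold changes were -2.85 ± 0.18 and -1.34 ± 0.17 (SE). The regulators of both arms, *Srebf1* and *Srebf2*, had log2 fold changes of -1.69 ± 0.13 and -1.55 ± 0.09. The *Hmgcs1* promoter is shown because its response to SREBP through a sterol element is textbook knowledge. In the window chr13:119690101-119690350 (plus strand, GRCm38.p6) the capitals mark the sterol element letters TCACNCCAC and the letters CCAAT, on either strand, which did not overlap.
Hmgcs1: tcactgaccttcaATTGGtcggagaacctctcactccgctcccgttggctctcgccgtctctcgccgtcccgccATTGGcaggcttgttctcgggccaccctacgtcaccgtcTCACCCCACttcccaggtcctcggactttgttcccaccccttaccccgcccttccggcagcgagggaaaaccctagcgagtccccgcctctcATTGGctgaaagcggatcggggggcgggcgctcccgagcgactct
The sterol letters occurred in 1 of the 16 list genes with a window and in 1.22% of all genes, and CCAAT in 12 of the 16 genes and 37.5% of all genes.

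**Figure D5:**
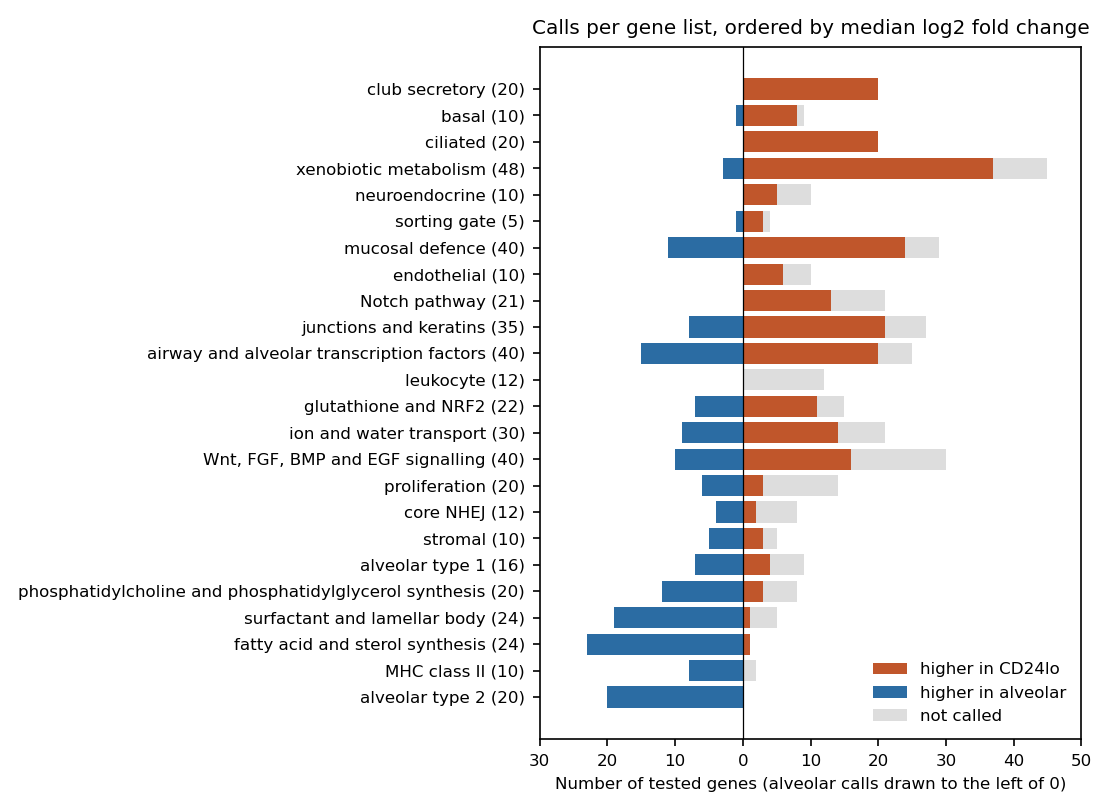
Number of tested genes of each list that were higher in CD24lo (right of 0), higher in alveolar cells (left of 0) or not called (grey, to the right), ordered by the median log2 fold change, with the number tested in brackets. Club genes lie at the top with 20 of 20 higher in CD24lo, and MHC class II and alveolar type 2 genes lie at the bottom with 8 of 10 and 20 of 20 higher in alveolar cells.

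Genes of phospholipid synthesis and turnover were partly higher in alveolar cells. Of 20 genes of phosphatidylcholine and phosphatidylglycerol synthesis and turnover, 12 were higher in alveolar cells, 3 in CD24lo and 5 were not called. The 12 include *Pla2g1b* and *Sgms1* and the 3 include *Prdx6*, which are not genes of their synthesis. *Lpcat1*, which remodels phosphatidylcholine to its dipalmitoyl form, had 785, 668 and 723 RPKM in alveolar and 29.5, 25.2 and 31.8 RPKM in CD24lo libraries (log2 fold change -4.65 ± 0.15, SE). *Pgs1*, which makes the phosphatidylglycerol precursor, stood at 127, 124 and 132 RPKM against 29.7, 37.9 and 29.3 RPKM. Of 24 tested surfactant and lamellar body genes, which share 8 members with the type 2 list, 19 were higher in alveolar cells, 1 in CD24lo and 4 were not called, and *Pga5* did not pass the filter on low counts. *Npc2*, a lysosomal sterol carrier, was at 1243, 1187 and 1329 RPKM against 318, 432 and 374 RPKM and *Lrrk2*, a kinase of lysosome-related organelles, at 56.7, 66.1 and 76.2 RPKM against 8.98, 12.4 and 12.8 RPKM. *Psap*, a saposin precursor, was the gene higher in CD24lo, at 161, 131 and 140 RPKM against 89.6, 88.8 and 80.3 RPKM.

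Transcription factors differed in both directions. Of 40 factors, 20 were higher in CD24lo, 15 in alveolar cells and 5 were not called. *Sox2*, the factor that specifies conducting airway, had 35.9, 43.8 and 45.9 RPKM in CD24lo and 0.897, 0.936 and 0.534 RPKM in alveolar libraries, a log2 fold change of 5.71 ± 0.23 (SE; adjusted p = 1.55e-12, edgeR's quasi-likelihood test). *Sox21* stood at 6.01, 6.98 and 5.88 RPKM against 0.139, 0.1696 and 0.106 RPKM. *Pax9* had 176, 217 and 169 reads in the CD24lo and 0, 3 and 2 in the alveolar libraries. *Sox2* did not pass the test between CD24lo and CD24hi cells (CD24hi mean of 32.7 RPKM; adjusted p = 0.0679, edgeR's quasi-likelihood test), whereas *Sox21* and *Pax9* were lower in CD24hi (means of 0.848 and 0.857 RPKM; log2 fold changes of CD24lo over CD24hi 2.89 ± 0.17 and 3.10 ± 0.21, SE).

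On the alveolar side *Etv5*, the ETS factor that maintains type 2 identity, was at 192, 166 and 199 RPKM against 6.67, 4.47 and 4.97 RPKM (log2 fold change -5.11 ± 0.15, SE; adjusted p = 1.37e-13, edgeR's quasi-likelihood test). *Irx1* was at 145, 157 and 159 RPKM against 20.002, 18.7 and 17.6 RPKM and *Id2*, which marks distal lung progenitors in development, at 236, 206 and 228 RPKM against 50.4, 38.4 and 44.98 RPKM. *Nkx2-1*, the lung lineage factor, was abundant in both, at 203, 182 and 187 RPKM in alveolar and 83.7, 87.7 and 76.7 RPKM in CD24lo libraries, and *Cebpa* at 223, 199 and 246 RPKM against 60.9, 74.2 and 72.01 RPKM. *Foxa1* and *Elf3* were modestly higher in CD24lo, with log2 fold changes of 0.70 ± 0.10 and 1.02 ± 0.12 (SE). *Foxa3* and *Spdef*, factors of mucous cells, stood at 2.03, 1.73 and 2.54 and 8.83, 9.64 and 9.53 RPKM in CD24lo against 0.302, 0.135 and 0.347 and 4.01, 3.63 and 4.26 RPKM in alveolar libraries.

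Notch signalling between neighbouring cells keeps airway cells secretory rather than ciliated. Of 21 tested Notch pathway genes, with *Hes5* below the filter, 13 were higher in CD24lo, 0 in alveolar cells and 8 were not called, and their median log2 change was 1.12. The exception to the 0 was the fit of the 6 libraries alone, which called 1 gene higher in alveolar cells. Among the targets, *Nrarp* stood at 29.4, 30.1 and 35.9 RPKM against 2.12, 2.102 and 2.15 RPKM, *Hes1* at 247, 270 and 258 RPKM against 46.6, 44.5 and 49.9 RPKM and *Hey1* at 14.4, 10.3 and 13.8 RPKM against 2.04, 2.796 and 2.52 RPKM. Of the exonic bases of *Nrarp*, 79.4% lie opposite an antisense gene, and reads of the pair cannot be told apart without strand. *Nrarp*, a feedback inhibitor, had a log2 fold change of 3.90 ± 0.19 (SE; adjusted p = 1.57e-11, edgeR's quasi-likelihood test). Of the receptors, *Notch3* was at 7.35, 7.18 and 9.83 RPKM against 0.754, 1.12 and 0.826 RPKM. Of the ligands, *Dll1* was at 7.01, 6.16 and 3.86 RPKM against 1.05, 1.34 and 1.21 RPKM. *Jag2* was at 15.8, 16.5 and 9.17 RPKM against 4.56, 4.86 and 4.78 RPKM, and both were lowest in CD24lo replicate 3. The CD24lo gate was called higher than CD24hi for *Nrarp*, *Notch3* and *Dll1* (CD24hi means of 7.01, 2.13 and 2.49 RPKM). It was not for *Hes1* and *Hey1* (182.5 and 14.6 RPKM), and *Jag2* was higher in CD24hi (46.5 RPKM).

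Of 40 genes of the Wnt, FGF, BMP and EGF pathways, 16 were higher in CD24lo, 10 in alveolar cells and 14 were not called. The Wnt target *Axin2*, which marks a Wnt-responsive subset of type 2 cells, stood at 11.7, 9.74 and 11.4 RPKM in alveolar and 1.71, 0.876 and 0.621 RPKM in CD24lo libraries. The ligand *Wnt3a* stood at 2.56, 2.47 and 2.71 RPKM against 0.701, 0.249 and 0.167 RPKM, while the ligand *Wnt4* stood at 1.06, 0.7702 and 0.502 RPKM against 11.1, 10.3 and 7.26 RPKM. *Wnt3a* and *Wnt4* thus went in opposite directions between these populations. *Wnt4* was higher still in CD24hi cells, at a mean of 29.7 RPKM (log2 fold change of CD24lo over CD24hi -1.63). *Fgfr2*, the receptor of distal FGF signals, was at 191, 177 and 178 RPKM against 48.9, 64.3 and 55.2 RPKM, and the FGF-induced inhibitors *Spry1* and *Spry2* had log2 fold changes of -1.68 ± 0.14 and -1.09 ± 0.13 (SE). *Fgfr1* went the other way (1.02 ± 0.12). *Bmp4* was at 41.9, 41.1 and 36.4 RPKM against 13.8, 14.03 and 11.3 RPKM, and the receptor *Bmpr1b* at 0.06605, 0.172 and 0.1703 RPKM against 10.2, 18.95 and 18.7 RPKM. *Shh*, the hedgehog ligand, stood at 29.9, 36.4 and 39.5 RPKM in CD24lo and 7.66, 7.62 and 7.61 RPKM in alveolar libraries.

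Ion and water transport genes differed in both directions. Of 30 tested, 14 were higher in CD24lo, 9 in alveolar cells and 7 were not called, and *Slc9a3* and *Kcnj16* did not pass the filter. The sodium channel subunits *Scnn1b* and *Scnn1g* stood at 126, 199 and 180 and 40.2, 65.3 and 58.2 RPKM in CD24lo against 9.77, 8.75 and 9.805 and 4.52, 5.03 and 3.71 RPKM in alveolar libraries, while the shared subunit *Scnn1a* differed less (log2 fold change 0.47 ± 0.10, SE), at 101, 122 and 95.99 RPKM against 73.8, 77.3 and 78.8 RPKM. *Kcne3*, a potassium channel subunit, had 571 reads in CD24lo and 1 in alveolar libraries, a ratio of 617 (95% exact interval 110 to 24407). The chloride channel *Cftr* was at 15.6, 16.3 and 18.2 RPKM in alveolar and 2.497, 3.39 and 2.72 RPKM in CD24lo libraries, and the anion transporters *Slc26a9* and *Slc26a4* at 113, 102 and 104 and 13.3, 12.1 and 11.9 RPKM against 10.95, 12.5 and 10.7 and 0.269, 0.223 and 0.224 RPKM. Among water channels, *Aqp4* had 16.2, 20.2 and 22.5 RPKM in CD24lo against 0.104, 0.199 and 0.119 RPKM, whereas *Aqp5* stood at 180, 236 and 184 RPKM against 365, 339 and 357 RPKM.

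Mucosal defence genes differed in both directions, more of them higher in CD24lo. Of 40 genes, 24 were higher in CD24lo, 11 in alveolar cells and 5 were not called, with a median of 1.25. Lactoferrin (*Ltf*) stood at 153, 199 and 289 RPKM in CD24lo and 1.29, 1.71 and 1.51 RPKM in alveolar libraries, *Bpifb1* at 1537, 1213 and 1708 RPKM against 4.99, 5.697 and 5.31 RPKM, and *Pigr*, which carries antibody across the epithelium, at 161, 199 and 247 RPKM against 3.09, 2.96 and 2.81 RPKM. *Muc5b* was at 81.1, 96.7 and 102 RPKM and *Muc5ac*, the mucin of goblet cells, at 3.23, 4.68 and 3.61 RPKM in CD24lo, so the former was the more abundant of the 2 per length. On the alveolar side *Lyz2*, a lysozyme, was at 41889, 36524 and 44255 RPKM against 1508, 853 and 1482 RPKM, lipocalin 2 (*Lcn2*) at 929, 805 and 786 RPKM against 51.6, 48.3 and 48.8 RPKM, and the cytokine gene *Il33* at 179, 162 and 188 RPKM against 6.15, 2.49 and 4.997 RPKM. *Csf2*, which encodes the macrophage growth factor GM-CSF, stood at 17.9, 17.5 and 18.7 RPKM against 0.802, 0.285 and 0.334 RPKM.

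Antigen presentation through MHC class II belonged to the alveolar gate. Of 10 genes, 8 were higher in alveolar cells and 2, *H2-Oa* and *H2-Ob*, were not called, and their median log2 change was -3.78. *Cd74*, the invariant chain, was at 2605, 2629 and 2861 RPKM in alveolar and 176, 102 and 115 RPKM in CD24lo libraries, and *Ciita*, the transactivator of the genes, at 9.19, 8.52 and 9.56 RPKM against 0.938, 0.466 and 0.829 RPKM. *H2-Aa* was at 1089, 1093 and 1194 RPKM against 78.3, 37.7 and 44.7 RPKM and *H2-Eb1* at 322, 310 and 337 RPKM against 30.8, 13.5 and 20.4 RPKM. CD24lo replicate 1 was the highest and replicate 2 the lowest of the group for these 4 genes. The same order held for *Sftpc* (5709, 2697 and 4243 RPKM), *Napsa* and the summed leukocyte markers (38.3, 27.9 and 36.7 RPKM). Replicate 1 also held the most endothelial transcripts, at summed RPKM of 544, 217 and 198 in replicates 1, 2 and 3. The part of alveolar, leukocyte or endothelial cells in these levels was not tested. The leukocyte marker *Ptprc* averaged 1.54 RPKM in CD24lo and 0.854 RPKM in alveolar libraries.

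The *H2-Aa* and *H2-Eb1* promoters are shown because these genes moved together and a CCAAT box is a textbook element of class II promoters. Capitals mark CCAAT on either strand in the windows chr17:34287824-34288073 (minus strand) and chr17:34305617-34305866 (plus strand) of GRCm38.p6.
H2-Aa: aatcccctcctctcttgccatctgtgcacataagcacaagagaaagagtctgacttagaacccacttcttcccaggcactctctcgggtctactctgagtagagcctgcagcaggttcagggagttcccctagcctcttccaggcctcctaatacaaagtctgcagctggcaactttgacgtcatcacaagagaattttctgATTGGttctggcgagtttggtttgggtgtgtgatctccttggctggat
H2-Eb1: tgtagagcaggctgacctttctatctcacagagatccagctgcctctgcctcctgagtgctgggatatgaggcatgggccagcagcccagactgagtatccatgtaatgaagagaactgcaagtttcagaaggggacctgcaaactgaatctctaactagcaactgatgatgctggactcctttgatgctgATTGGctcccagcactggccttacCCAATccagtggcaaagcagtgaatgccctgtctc
CCAAT was found in all 7 class II genes with a window, *H2-Oa* and *H2-Ob* included although they were not called, and in 37.5% of all genes.

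Of 35 junction and keratin genes, 21 were higher in CD24lo, 8 in alveolar cells and 6 were not called. The claudin *Cldn10* stood at 102, 150 and 146 RPKM in CD24lo and 1.401, 1.4 and 0.977 RPKM in alveolar libraries, and *Cldn18*, the alveolar claudin, at 45.2, 25.3 and 22.4 RPKM against 313, 294 and 324 RPKM. *Krt19* was at 401, 454 and 441 RPKM against 46.5, 53.7 and 55.9 RPKM. The laminin genes *Lama3* and *Lamb3*, whose products bind integrin α6β4, were higher in the alveolar gate, where *Itgb4* itself was low. *Lamb3* had 86.9, 89.2 and 85.7 RPKM in alveolar and 15.9, 19.6 and 12.6 RPKM in CD24lo libraries, and the log2 fold changes were -2.59 ± 0.18 for *Lama3* and -2.44 ± 0.17 for *Lamb3* (SE).

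The study asked about DNA repair by nonhomologous end joining (NHEJ), so its core genes were read in these populations as well. Of 12, 2 were higher in CD24lo, 4 in alveolar cells and 6 were not called, and their median log2 change was -0.15. The share called, 50%, was close to the 48.4% of all genes. *Xrcc6* (Ku70) stood at 9.98, 10.4 and 10.6 RPKM in CD24lo and 15.9, 17.9 and 16.5 RPKM in alveolar libraries, and *Xrcc5* (Ku80) at 15.3, 17.6 and 19.2 RPKM against 14.6, 14.6 and 12.8 RPKM. The log2 fold changes were -0.70 ± 0.12 and 0.31 ± 0.10 (SE), so the 2 subunits of the same dimer moved apart. The call of *Xrcc5* was lost without CD24lo replicate 3 (log2 fold change 0.24) or alveolar replicate 3 (0.26), and *Xrcc6* was called in every fit. The count of 4 was 2 in the 6 libraries alone, with or without the mouse as a block, and without CD24lo replicate 1, and the count of 2 was 1 without replicate 3 of either population. No member passed the test for a change beyond 2-fold.

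Of 20 proliferation genes, 3 were higher in CD24lo (5 without alveolar replicate 2), 6 in alveolar cells and 11 were not called. The share called, 45%, was close to the 48.4% of all genes. *Plk1*, a mitotic kinase, was at 5.35, 5.21 and 5.22 RPKM against 0.4799, 1.04 and 0.504 RPKM and *Bub1*, a spindle checkpoint kinase, at 0.3396, 0.226 and 0.265 RPKM against 5.18, 5.01 and 4.68 RPKM. They went in opposite directions, with log2 fold changes of 2.95 ± 0.21 and -4.15 ± 0.25 (SE).

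Against the CD24hi gate of the same mice, 4901 genes (27.2%) were higher in CD24lo and 4998 (27.8%) were lower. There were 685 genes averaging 20 CPM or more in CD24lo that were higher there than in both alveolar and CD24hi cells. Those with the largest smaller fold change included *Capn13*, *Adcyap1r1*, *Muc5ac*, *Atp6v1b1*, *Muc5b*, *Adh7* and *Clca1*. *Adcyap1r1*, the receptor of the neuropeptide PACAP, had 4.42, 3.74 and 4.296 RPKM in CD24lo, 0.268, 0.206 and 0.178 RPKM in alveolar and a mean of 0.288 RPKM in CD24hi libraries. *Clca1*, a secreted protein of mucous cells, stood at 40.3, 68.1 and 52.6 RPKM, 0.0901, 0.502 and 0.0688 RPKM and a mean of 3.99 RPKM. Outside these gates, *Adcyap1r1* averaged 6.58 RPKM in EpCAM-negative lung cells, above its CD24lo mean of 4.15 RPKM. *Adh7* averaged 536 RPKM in tracheal basal cells and 72.9 RPKM in CD24lo. The *Clca1* means were 0.171 RPKM in EpCAM-negative, 5.64 RPKM in tracheal basal and 149 RPKM in tracheal non-basal cells, against 53.7 RPKM in CD24lo. Tracheal non-basal means were also above CD24lo for *Capn13*, *Atp6v1b1*, *Muc5b* and *Adh7*, at 19.4, 132, 268 and 430 RPKM. The CD24lo means of these genes were 8.14, 43.5, 93.3 and 72.9 RPKM. *Adcyap1r1* and *Muc5ac* were lower in tracheal non-basal cells, at 1.31 and 2.23 RPKM, than in CD24lo. No test was made of these differences. *Scgb1a1* had a mean of 78222 RPKM in CD24hi cells and a log2 fold change of CD24lo over CD24hi of 2.94 ± 0.26 (SE; adjusted p = 3.02e-08, edgeR's quasi-likelihood test). *Sftpb* was higher in CD24lo than in CD24hi too, at a mean of 404 RPKM there (2.18 ± 0.22), and so was *Sftpc*, at a mean of 1169 RPKM (1.85 ± 0.34).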

How the data were processed

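RNA of sorted mouse lung cells was sequenced as single-end reads. The authors aligned the reads to mm10 with Rsubread and assigned them to RefSeq genes with featureCounts, and per the submitters' processing notes base calls came from bcl2fastq 1.8.4. How multi-mapped reads were treated and whether strand was used is not given in the sources used here. The deposited values are raw read counts per Entrez gene and a gene length, with no normalization and no row without a gene, and a table of the whole series was not used.

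All else was computed from the counts of 27179 genes in R 4.3.3. Symbols and coordinates came from RefSeq's GRCm38.p6 gene table, the assembly of mm10, which matched 25275 identifiers. A filter of more than 0.2 CPM in 3 or more libraries kept 17989 genes, which after TMM scaling went through glmQLFit and glmQLFTest of edgeR 4.0.16 in one fit of 18 libraries and 6 groups, with Benjamini-Hochberg adjustment over all genes, and with glmTreat for a 2-fold change. Errors (SE) are standard errors of the log2 fold change derived from the quasi-likelihood F statistic of this fit. Each is the absolute log2 fold change divided by the square root of F, and n = 3 libraries per group throughout.

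Named genes were the members of 24 lists of pathway, cell type and regulatory genes, the 12 largest rises and falls among called genes averaging 10 CPM or more without overlap (unnamed clone and predicted genes left out), the 5 highest by RPKM per population, and 8 higher than in both other lung epithelial gates. Some members of the lists are counted with them and not reported here by name. The members and lists were chosen with earlier results of these data known. The labels tie both populations to the same 3 mice. The deviations of same-mouse libraries from their group means correlated at 0.05, -0.09 and 0.10.

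On counts simulated for this comparison over 17776 genes, the test called 62 of 66 genes changed by 2 on the log2 scale, 48 of 67 changed by 1, 14 of 67 changed by 0.5 and 5 of 17576 unchanged genes. Far fewer genes changed in the simulation than were called in the data, so these shares do not give the share missed in the data. Replicate pairs differed by a chi-square per degree of freedom of 5.70 to 38.1, so none was counted as 1 library. Shared 100-base windows and exon overlap were read from the GENCODE M21 annotation of GRCm38, and promoter windows from a RefSeq table of the same assembly. Alternatives tried were other scalings and filters, DESeq2 1.42.0, limma 3.58.1 (voom), a fit of the 6 libraries alone and with the mouse as a block, and each library left out.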

Additional observations from a re-analysis of the deposited data

How the results depend on the processing

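Across the settings tried, between 7487 and 8719 genes differed, of which 7387 to 8536 were called in the same direction as in the fit of 18 libraries (8707 genes). With the mouse as a replicate block in the 6 libraries, 7723 genes were called. The block lowered the neuroendocrine genes higher in CD24lo from 5 to 3, the gate genes higher in alveolar cells from 1 to 0 (*Epcam*) and the NHEJ genes higher in alveolar cells from 4 to 2, and moved no other list count by over 1.5 times. In the 6 libraries without the block, NHEJ genes higher in alveolar cells numbered 2 and Notch genes higher in alveolar cells 1 in place of 0. DESeq2 called 1 stromal gene higher in alveolar cells in place of 5. With each library left out in turn, neuroendocrine genes higher in CD24lo ranged from 3 to 5, endothelial genes higher in CD24lo from 1 to 7, stromal genes higher in alveolar cells from 1 to 5, NHEJ genes higher in alveolar cells from 2 to 5 and higher in CD24lo from 1 to 2, and proliferation genes higher in CD24lo from 2 to 5. The endothelial count was 1 without CD24lo replicate 1 or alveolar replicate 1 and 2 without alveolar replicate 3, and the stromal count was 1 without CD24lo replicate 2 or 3 or alveolar replicate 1 or 2. The NHEJ counts were 2 (alveolar) without CD24lo replicate 1, and 1 (CD24lo) without CD24lo replicate 3 or alveolar replicate 3. The proliferation count was 5 without alveolar replicate 2, and the neuroendocrine count was 3 without alveolar replicate 3. The causes were not tested. Genes with few reads in a population, such as *Kcne3* or *Ifi202b*, carry wide counting intervals, and with 3 libraries per group small changes can be missed. The simulation cannot say how often, because 17576 of its 17776 genes were unchanged. In the data 48.4% of genes were called, so an adjusted p-value under 0.05 was harder to reach in the simulation.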

Other observations

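*Bub1* stood apart from the other proliferation genes. It averaged 4.96 RPKM in alveolar, 0.277 RPKM in CD24lo and 0.0874 RPKM in CD24hi libraries, a log2 fold change of CD24lo over alveolar of -4.15 ± 0.25 (SE), whereas the other 5 genes of that list called higher in alveolar cells had log2 fold changes between -0.98 and -0.49. *Bub1* lies 6937 bases from *Acoxl* on chromosome 2, a gene with one of the 12 largest falls, and the annotation used here gives the pair 0 shared exonic bases. The observation was chosen after the values were seen.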
